A study of Mus musculus with 8 samples.

Results

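Genes of mitochondrial biogenesis, fusion and fission, 10 in all, were followed by their symbols in a table of 22520 genes and assembled transcripts from bulk RNA-seq of mouse splenic CD8+ T cells. For biogenesis these were *Ppargc1a*, *Ppargc1b*, *Tfam* and *Nrf1*, for fusion *Opa1*, *Mfn1* and *Mfn2*, and for fission *Dnm1l*, *Fis1* and *Mff*. All 10 symbols were found, each once, and 9 of them reached the level needed for testing. Between DMSO and DADA, 5 of the 9 tested genes fell, 1 rose, and 3 did not pass the test. By the same test 35.3% of all tested genes fell and 30.9% rose, so the share that passed was near that of the whole table. Among the 9, every difference that passed was small: the mean FPKM of a called gene was 9.08% to 11.8% lower, or, for *Fis1* alone, 14.6% higher, in the DADA-treated cells.

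The study cultured CD8+ T cells from spleen under persistent TCR stimulation for 6 days, with antibodies to CD3 and CD28 and with IL-2 in all cultures. From day 3, the medium held 40 µM DADA, which is diisopropylamine dichloroacetate, or the same volume of DMSO, and the cells were harvested on day 6. Each group had 4 libraries. The labels name no genetic change in either group, their genotype field holding only control or model, and no strain, sex or age of the mice. The paper took the spleens for this culture from wild-type mice. Its methods list male C57BL/6J mice, with an age range, among the mice used, without naming those behind these libraries. The labels do not say whether the 4 libraries of a group came from separate mice, pooled mice or separate cultures. The p-values given here therefore measure the spread between these libraries. The cells are an antibody-driven culture and not cells taken from a tumour.

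Mitochondria grow from existing mitochondria, and most of their proteins are encoded in the nucleus. The coactivators PGC-1α and PGC-1β, products of *Ppargc1a* and *Ppargc1b*, raise the activity of transcription factors such as NRF1, and TFAM packages mitochondrial DNA and starts its transcription. The mitofusins MFN1 and MFN2 join outer membranes and OPA1 joins inner membranes, whereas the dynamin-related GTPase DRP1, encoded by *Dnm1l*, constricts mitochondria after adaptors such as MFF and FIS1 have placed it on the outer membrane. In T cells, memory cells are known for elongated, fused networks and newly activated effector cells for fragmented mitochondria.

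The values were fragments per length of transcript and per size of the library (FPKM), a scale divided by length that allows levels to be compared between genes. They were analysed as log2(FPKM + 1) with limma and Benjamini-Hochberg adjustment over 10666 genes, those at 1 FPKM or more in 4 or more of the 8 libraries, and a gene is called where its adjusted p-value was under 0.05. On this scale the change of a gene at low FPKM is understated. Of the 10666 genes, 7064 were called between the groups (66.2%), 3296 of them higher (30.9%) and 3768 lower (35.3%). The groups did not overlap, meaning that every DADA library lay on one side of every DMSO library, for 60.6% of the genes tested. A call for a single gene in these libraries is therefore the common outcome, and each count given below is read against these shares. Summed over all genes, a library held 450473 to 456939 FPKM with DMSO and 438299 to 449480 FPKM with DADA. The number of mapped fragments, estimated from the spacing of low FPKM values, was 13760000 to 16100000 with DMSO and 15240000 to 18880000 with DADA.

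The 5 CD8 T cell markers *Cd3d*, *Cd3e*, *Cd8a*, *Cd8b1* and *Thy1* summed to 832 to 853 FPKM with DMSO and to 965 to 1012 FPKM with DADA, and all 5 were called higher. Markers of B cells, NK cells and erythroid cells were near 0, each list summing to at most 0.346 FPKM in any library. Among the 4 CD4 T cell markers, whose sum was 16.3 to 17.4 FPKM with DMSO and 15.3 to 15.8 with DADA, *Cd4* itself was between 0.144 and 0.411 FPKM in all libraries and *Zbtb7b* made up most of the sum. The 5 myeloid markers summed to 3.44 to 3.96 FPKM with DMSO and 5.11 to 5.59 with DADA, nearly all of it from *Cd68*, while *Csf1r* and *Adgre1* were at 0 in every library. The part of these marker differences in the results below was not tested, and in bulk libraries fewer cells of a type and less RNA per cell cannot be told apart.

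PGC-1 coactivators bind no DNA themselves and act through factors such as NRF1, GABPA and the estrogen-related receptors, so the promoters of the 10 genes were read for the motifs of these factors, and those with a match close to the start are shown. RefSeq promoter windows on the build GRCm38.p6, from 250 bases before to 50 bases after each annotated start, were matched for 9 of the 10 genes, in 15 windows. They were searched on both strands for TGCGCA, the core of the NRF1 site, which reads the same on both strands, for CCGGAAG, the ETS core bound by GABPA (also named NRF2 in this pathway), and for AAGGTCA, part of the site of estrogen-related receptors. The motifs do not overlap one another in the windows printed. Printed here, 5′ to 3′ on the strand of the gene, are the 150 bases before the start for the 4 genes with a match there, and the capitals mark the motif.
Tfam, chr10:71238045-71238194, minus strand: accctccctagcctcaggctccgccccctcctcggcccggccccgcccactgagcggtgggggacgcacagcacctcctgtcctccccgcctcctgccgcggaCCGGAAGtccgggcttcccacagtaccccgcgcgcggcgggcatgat
Opa1, chr16:29579184-29579333, plus strand: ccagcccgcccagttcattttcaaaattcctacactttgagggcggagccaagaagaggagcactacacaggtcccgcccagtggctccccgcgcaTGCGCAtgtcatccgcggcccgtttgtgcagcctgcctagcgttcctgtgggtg
Mfn1, chr3:32529332-32529481, plus strand: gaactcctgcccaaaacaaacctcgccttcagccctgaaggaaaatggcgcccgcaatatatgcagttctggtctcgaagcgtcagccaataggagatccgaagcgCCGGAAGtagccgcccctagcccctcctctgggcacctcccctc
Fis1, chr5:136953125-136953274, plus strand: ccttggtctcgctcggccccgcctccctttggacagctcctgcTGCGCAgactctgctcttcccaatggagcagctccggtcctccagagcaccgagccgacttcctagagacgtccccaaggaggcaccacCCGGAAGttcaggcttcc
The NRF1 core occurred in 2 of the 15 windows, that of *Opa1* and 1 of the 2 of *Fis1*, and in 7.76% of the 32851 windows of all genes. The ETS core occurred in 5 of the 15 windows, those of *Tfam* and *Mfn1*, both of *Fis1* and 1 of the 2 of *Dnm1l*, and in 8.86% of all windows. No window of the 9 genes matched held AAGGTCA, which was found in 4.72% of all windows. *Ppargc1b* had no window and was not searched. Of the genes printed, *Tfam* and *Opa1* were lower with DADA, *Fis1* was higher and *Mfn1* did not pass the test. A match to these letters is a description of the sequence, not evidence of binding.

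Among the biogenesis coactivators, *Ppargc1a* (ENSMUSG00000029167) was listed at 0 in all 8 libraries and was not tested. In the whole table, 6353 of 22520 rows were at 0 in every library. None of 7 genes that every cell or every leukocyte uses, *Actb*, *B2m*, *Ppia*, *Rplp0*, *Ptprc*, *Tbp* and *Pgk1*, was listed at 0 in any library. Such genes cannot show whether a 0 for *Ppargc1a* means absence or a level below detection. *Ppargc1b* (ENSMUSG00000033871) was at 1.63, 1.15, 1.52 and 1.40 FPKM with DMSO, and with DADA its values were 1.24, 0.949, 1.16 and 1.30 FPKM. The ranges overlapped, with DADA library 2 the lowest of all. Its log2 fold change was -0.16 (SE 0.0820, 95% interval -0.35 to 0.02; limma, Benjamini-Hochberg adjusted p = 0.103), so the interval holds both a fall and no change. Only 3.59% of the tested genes had a lower level than *Ppargc1b*. The third member of the coactivator family, *Pprc1*, was far more abundant, with a mean of 27.6 ± 0.701 FPKM under DMSO and of 20.6 ± 0.271 FPKM under DADA (SD, n = 4), which is 19.4-fold and 17.7-fold the mean level of *Ppargc1b*. *Pprc1* encodes a coactivator induced by growth signals, and it fell with DADA by 0.41 on the log2 scale (adjusted p = 6.11e-07, limma with Benjamini-Hochberg adjustment).

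*Tfam* (ENSMUSG00000003923) was at 19.8, 17.1, 18.8 and 20.2 FPKM with DMSO and at 17.8, 16.6, 16.8 and 16.1 FPKM with DADA. DMSO library 2 lay below DADA library 1, so the groups overlapped, while the other DMSO libraries were above every DADA library. Its mean fell from 19.0 ± 1.35 to 16.8 ± 0.718 FPKM (SD, n = 4 each), a log2 fold change of -0.16 (SE 0.0517, 95% interval -0.28 to -0.05; limma, Benjamini-Hochberg adjusted p = 0.0175). *Nrf1* (ENSMUSG00000058440), the nuclear respiratory factor that binds promoters of respiratory chain genes and a different gene from *Nfe2l1*, was at 24.9, 21.9, 23.8 and 26.4 FPKM with DMSO and at 20.6, 21.1, 23.7 and 20.1 FPKM with DADA. Only DADA library 3 reached into the DMSO range, close to DMSO library 3. The log2 fold change of *Nrf1* was -0.17 (SE 0.0628, 95% interval -0.31 to -0.03; limma, Benjamini-Hochberg adjusted p = 0.0334). This call was the least stable of the 6: it passed the threshold in 7 of 16 alternative analyses, and it was lost on leaving out DMSO library 1, 3 or 4 or DADA library 1, 2 or 4, with adjusted p between 0.0518 and 0.0895 in limma. An exact two-sided permutation test on log2(FPKM + 1) gave p = 0.0571 for both *Tfam* and *Nrf1*, where 0.0286 is the smallest that 4 libraries against 4 allow.

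**Figure D1:**
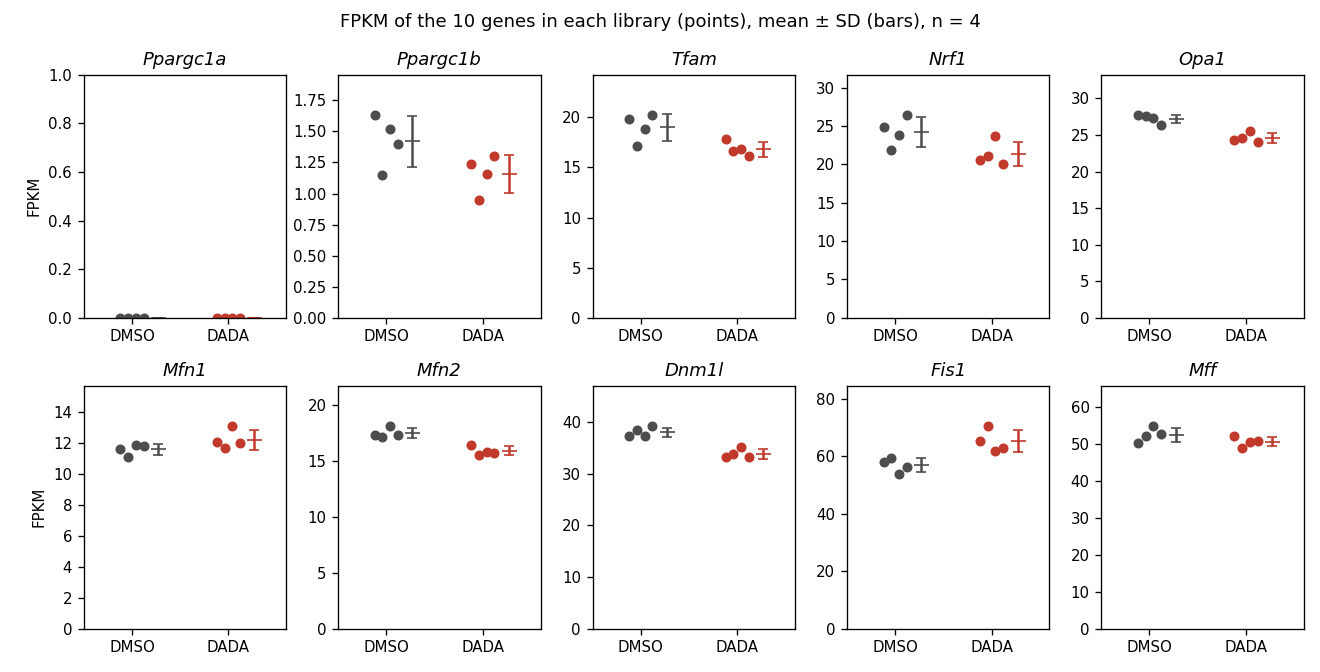
FPKM of each of the 10 genes in the 4 DMSO and the 4 DADA libraries (points) with the mean and SD (bars), 1 panel per gene on its own axis. *Opa1*, *Mfn2* and *Dnm1l* were lower in every DADA library than in any DMSO library, *Fis1* was higher in every one, and *Ppargc1a* was listed at 0 throughout.

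Of the fusion genes, *Opa1* and *Mfn2* fell and *Mfn1* did not pass the test. *Opa1* (ENSMUSG00000038084), for the inner membrane, was at 27.7, 27.6, 27.3 and 26.4 FPKM with DMSO and at 24.3, 24.6, 25.6 and 24.0 FPKM with DADA. All DADA values were below all DMSO values, and the log2 fold change was -0.14 (SE 0.0291, 95% interval -0.21 to -0.08; limma, Benjamini-Hochberg adjusted p = 0.00174). *Mfn2* (ENSMUSG00000029020), which also tethers mitochondria to the endoplasmic reticulum, was at 17.3, 17.1, 18.1 and 17.3 FPKM with DMSO and at 16.4, 15.5, 15.8 and 15.7 FPKM with DADA. Here too the groups did not overlap, and the log2 fold change was -0.13 (SE 0.0316, 95% interval -0.20 to -0.06; limma, Benjamini-Hochberg adjusted p = 0.00461).

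*Mfn1* (ENSMUSG00000027668), the other mitofusin, was at 11.6, 11.1, 11.9 and 11.8 FPKM with DMSO and at 12.1, 11.7, 13.1 and 12.0 FPKM with DADA. The ranges overlapped, with DADA library 3 the highest of all, and the log2 fold change was 0.07 (SE 0.0417, 95% interval -0.02 to 0.16; limma, Benjamini-Hochberg adjusted p = 0.168). Since both mitofusins were measured per length in the same library, their ratio does not depend on how the library was scaled. The ratio of *Mfn2* to *Mfn1* was 1.49, 1.54, 1.53 and 1.47 with DMSO and 1.36, 1.33, 1.21 and 1.32 with DADA. *Mfn2* was the more abundant of the pair in every library, by less in each DADA library than in any DMSO library. The mean ratio went from 1.51 ± 0.0323 to 1.30 ± 0.0657 (SD, n = 4 each; exact two-sided permutation test on the log2 ratio, p = 0.0286, the smallest possible; log2 difference -0.21).

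The fission genes differed in direction. *Dnm1l* (ENSMUSG00000022789) was at 37.3, 38.4, 37.3 and 39.2 FPKM with DMSO and at 33.2, 33.7, 35.1 and 33.3 FPKM with DADA. No DADA library reached the DMSO range, and the log2 fold change was -0.16 (SE 0.0286, 95% interval -0.23 to -0.10; limma, Benjamini-Hochberg adjusted p = 0.000547). In the annotation, an antisense gene, *Gm49521*, shares 175 bases with *Dnm1l* on the opposite strand and has no value of its own in the table, and the methods name a stranded library kit and the labels another kit, while the strand setting of the counting is not given in the sources used here. *Ppargc1a*, *Ppargc1b*, *Mfn2*, *Nrf1* and *Mff* also overlap other annotated genes, among them the pseudogene *Gm13156* opposite *Mfn2*. *Fis1* (ENSMUSG00000019054), which encodes an outer membrane adaptor, was at 57.9, 59.4, 53.8 and 56.4 FPKM with DMSO and at 65.4, 70.5, 61.7 and 63.0 FPKM with DADA. It was the only one of the 10 genes that rose, and all 4 DADA libraries were above all 4 DMSO libraries (log2 fold change 0.19, SE 0.0444, 95% interval 0.09 to 0.29; limma, Benjamini-Hochberg adjusted p = 0.00330).

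*Mff* (ENSMUSG00000026150), the other adaptor for DRP1, was at 50.3, 52.1, 54.9 and 52.8 FPKM with DMSO and at 52.2, 49.0, 50.7 and 50.8 FPKM with DADA. The groups overlapped, and the log2 fold change was -0.05 (SE 0.0315, 95% interval -0.12 to 0.02; limma, Benjamini-Hochberg adjusted p = 0.191). The ratio of *Dnm1l* to *Fis1*, chosen after the values were seen and so given without a test, was 0.644, 0.647, 0.694 and 0.694 with DMSO and 0.507, 0.478, 0.569 and 0.528 with DADA. The mRNA level of *Dnm1l* was thus below that of *Fis1* in every library, and further below it in every DADA library. The mean ratios were 0.670 ± 0.0283 with DMSO and 0.521 ± 0.0385 with DADA (SD, n = 4 each). The mean log2 level of the 3 fusion genes minus that of the 3 fission genes was -1.43, -1.50, -1.41 and -1.48 with DMSO and -1.52, -1.57, -1.46 and -1.52 with DADA. These ranges overlapped and their means differed by -0.06.

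**Figure D2:**
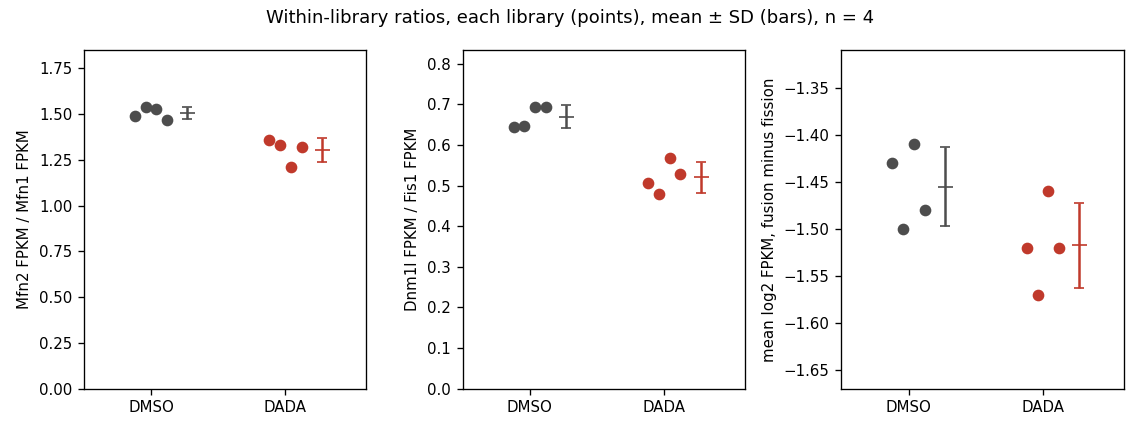
Within-library values for the 4 DMSO and 4 DADA libraries (points) with the mean and SD (bars): the ratio of *Mfn2* to *Mfn1*, the ratio of *Dnm1l* to *Fis1*, and the mean log2 level of fusion genes minus fission genes. Both ratios were lower in every DADA library than in any DMSO library, whereas the fusion minus fission values overlapped between the groups.

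Counted together, 6 of the 9 tested genes were called (66.7%), against 66.2% of all genes, and for 4 of the 9 the groups did not overlap, against 60.6% of all genes. That 1 gene was higher in every DADA library compares with 28.4% of all genes, and that 3 were lower in every one compares with 32.2%. The share called was thus near that of the whole table. The median log2 fold change of the 9 genes was -0.14, beside -0.02 over all tested genes. In the main analysis, the absolute log2 fold changes of all 9, from 0.05 to 0.19, were below the median absolute change of all tested genes, 0.207. This did not hold in every alternative. *Fis1* was at 0.23 with TPM scaling, where the median was 0.219. *Ppargc1b* was at -0.38 and *Fis1* at 0.23 with quantile normalization, where the median was 0.211. With a pseudocount of 0.1, *Ppargc1b* was at -0.27 and the median was 0.233. Without the filter the median was 0.138, with *Fis1* at 0.19 and *Nrf1* at -0.17. There *Tfam*, *Dnm1l* and *Ppargc1b* were each at -0.16, and *Opa1*, at -0.14, was near the median. Leaving out single libraries also put genes above the median. Without DMSO library 2 it was 0.208, with *Nrf1* and *Ppargc1b* at -0.22. Without DADA library 3 it was 0.206, with *Fis1* at 0.22 and *Nrf1* at -0.22. By role, 2 of the 3 tested biogenesis genes fell, 2 of the 3 fusion genes fell, and among the 3 fission genes 1 fell and 1 rose. *Tfam*, *Opa1*, *Mfn2*, *Dnm1l* and *Fis1* kept their direction and their call in all 16 alternative analyses, and *Mfn1* and *Mff* were called in none. The call of *Tfam* held only narrowly, with a limma adjusted p of 0.0481 with TPM scaling and 0.0499 without DADA library 4.

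**Figure D3:**
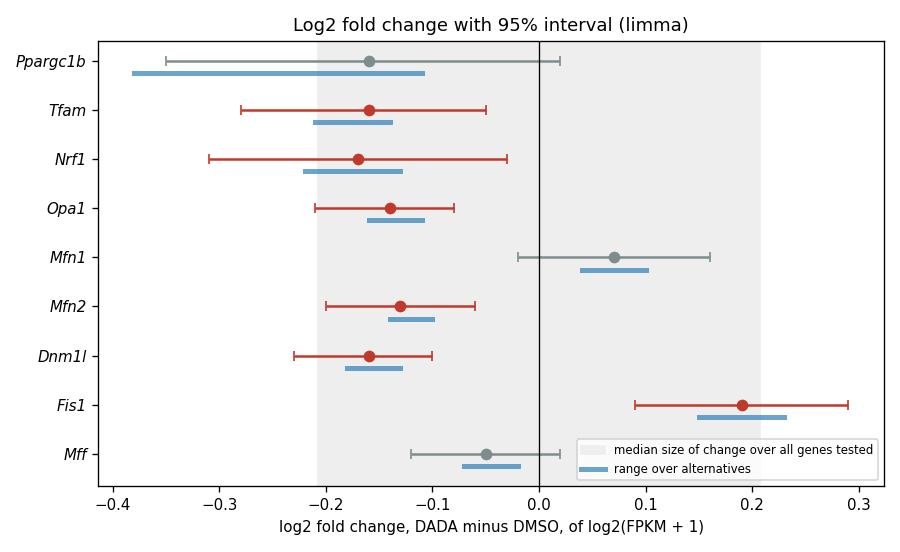
Log2 fold change of the 9 tested genes (points) with its 95% interval from limma (bars), DADA minus DMSO, on the log2(FPKM + 1) scale. Blue lines span the alternative analyses and the grey band is the median absolute change over all genes tested, 0.207 to either side of 0. The interval lay below 0 for *Tfam*, *Nrf1*, *Opa1*, *Mfn2* and *Dnm1l*, above 0 for *Fis1*, and across 0 for *Ppargc1b*, *Mfn1* and *Mff*.

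By their means, the 9 genes stood in the same order of level per length in both groups. With DMSO, *Fis1* at 56.9 ± 2.38 FPKM and *Mff* at 52.5 ± 1.91 FPKM led, and their ranges overlapped. *Dnm1l* followed at 38.0 ± 0.916, then *Opa1* at 27.2 ± 0.561 and *Nrf1* at 24.2 ± 1.92 FPKM, the last 2 meeting at 26.4 FPKM. *Tfam* at 19.0 ± 1.35 and *Mfn2* at 17.5 ± 0.453 FPKM overlapped, and *Mfn1* at 11.6 ± 0.346 and *Ppargc1b* at 1.42 ± 0.207 FPKM stood apart below them (SD, n = 4 each). With DADA, *Fis1* at 65.2 ± 3.86 FPKM was clear of *Mff* at 50.7 ± 1.32 FPKM, whose highest library was at 52.2, and *Tfam* at 16.8 and *Mfn2* at 15.9 FPKM still overlapped (n = 4 each). The table holds 1 value per gene, while the annotation lists from 3 (*Ppargc1b*) to 20 (*Nrf1*) transcripts for each, so isoforms, among them the several forms of *Opa1* and *Mff*, were not separated.

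The other genes of these pathways were looked at in 6 lists of nuclear-encoded genes, 91 genes in all, of which 87 were tested. Of these 87 genes, 16 were higher and 36 lower with DADA (59.8% called, against 66.2% of all genes), and their median log2 fold change was -0.09. The groups did not overlap for 14 higher and 32 lower of these 87 genes, beside 28.4% higher and 32.2% lower of all tested genes. The counts of each list below stand beside 30.9% of all tested genes called higher and 35.3% called lower. In each list, the genes named are the called ones with the largest change, up to 2 in each direction, with adjusted p from limma with Benjamini-Hochberg adjustment.

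Among 19 genes for the transcription and replication of mitochondrial DNA, 8 fell and 2 rose (median log2 fold change -0.14). *Top1mt*, the mitochondrial topoisomerase, fell from 12.0 ± 0.529 to 6.54 ± 0.318 FPKM (log2 fold change -0.79, adjusted p = 1.91e-07), and *Polg2*, the accessory subunit of the mitochondrial DNA polymerase, fell from 6.72 ± 0.285 to 4.81 ± 0.334 FPKM (-0.41, adjusted p = 6.32e-05). *Primpol*, a primase and polymerase, rose from 12.8 ± 1.01 to 16.4 ± 0.632 FPKM (0.34, adjusted p = 0.000304). *Mterf4*, which acts in mitochondrial ribosome assembly, rose from 9.52 ± 1.07 to 10.9 ± 0.545 FPKM (0.18, adjusted p = 0.0455), a call that held in only 7 of 16 alternative analyses. Without DMSO library 1 or 4, or DADA library 1, 3 or 4, 1 gene of this list was called higher.

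Of the 21 tested nuclear regulators of biogenesis, 8 rose and 3 fell, with a median log2 fold change of 0.05. *Myc*, the growth factor-induced transcription factor, rose from 121 ± 4.20 to 172 ± 4.28 FPKM (log2 fold change 0.50, adjusted p = 2.13e-07). The beta subunits of GABP, partners of the ETS factor GABPA, went opposite ways: *Gabpb2* rose from 17.4 ± 0.452 to 27.8 ± 0.992 FPKM (0.65, adjusted p = 9.09e-08) and *Gabpb1* fell from 34.8 ± 2.29 to 25.2 ± 0.0452 FPKM (-0.45, adjusted p = 7.65e-06). The other gene named among those that fell was *Pprc1*, described above with its family.

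In the list of fusion regulators and OPA1 processing, 8 of 15 tested genes fell and 3 rose (median log2 fold change -0.09). *Oma1*, a stress-activated protease that cuts OPA1, fell from 10.6 ± 0.817 to 8.00 ± 0.674 FPKM (log2 fold change -0.36, adjusted p = 0.000773), and *Parl*, the rhomboid protease of the inner membrane, fell from 59.3 ± 2.80 to 39.2 ± 1.38 FPKM (-0.59, adjusted p = 4.64e-07). *Afg3l2*, a subunit of the matrix-facing AAA protease, rose from 39.4 ± 0.714 to 65.0 ± 2.04 FPKM (0.71, adjusted p = 1.25e-08). *Usp30*, an outer membrane deubiquitinase, rose from 6.68 ± 0.305 to 8.71 ± 0.312 FPKM (0.34, adjusted p = 6.84e-05). The proteases named here thus moved in both directions.

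Of 15 tested fission receptors and regulators, 8 fell and 1 rose (median log2 fold change -0.09). *Mtfr2* fell from 10.2 ± 0.896 to 6.45 ± 0.325 FPKM (log2 fold change -0.58, adjusted p = 1.50e-05) and *Mtfr1*, of the same family of fission regulators, from 27.4 ± 0.874 to 22.2 ± 0.338 FPKM (-0.29, adjusted p = 1.32e-05). *Spire1*, an actin nucleator with a mitochondrial isoform, rose from 8.88 ± 0.294 to 11.1 ± 0.508 FPKM (0.29, adjusted p = 0.000137). Of the 11 genes for cristae organisation, 8 fell and none rose in the limma test (median log2 fold change -0.17). Among them, *Samm50*, which links the outer membrane to the MICOS complex, fell from 33.9 ± 0.440 to 28.0 ± 1.01 FPKM (-0.27, adjusted p = 2.34e-05). *Apoo*, a MICOS subunit, fell from 22.2 ± 0.661 to 15.9 ± 3.61 FPKM (-0.48, adjusted p = 0.0100), with the DADA libraries at 15.8, 19.2, 17.7 and 10.9 FPKM.

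The 6 genes for mitochondrial transport along microtubules gave 2 higher and 1 lower, or 2 lower on leaving out DMSO library 1 or DADA library 3. *Armcx3*, of an outer membrane protein that binds the Miro GTPases, rose from 3.44 ± 0.560 to 6.61 ± 0.414 FPKM (log2 fold change 0.78, adjusted p = 1.95e-05) and *Trak1*, a motor adaptor, from 15.2 ± 0.167 to 19.7 ± 0.662 FPKM (0.36, adjusted p = 4.12e-06), while *Rhot1*, the GTPase that anchors the motor, fell from 21.2 ± 0.598 to 18.7 ± 0.990 FPKM (-0.17, adjusted p = 0.00393).

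**Figure D4:**
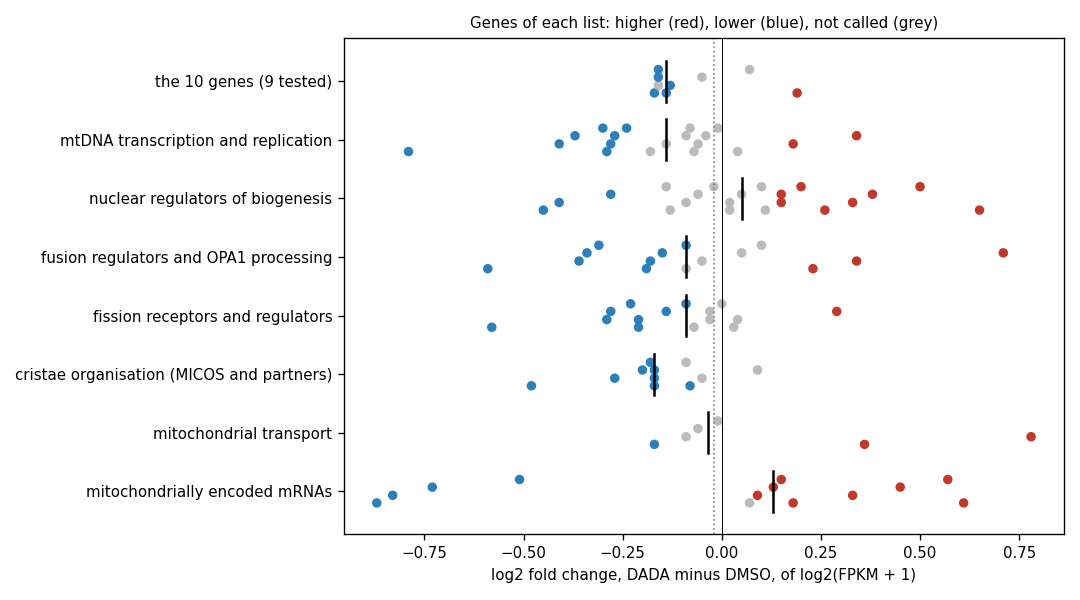
Log2 fold change, DADA minus DMSO, of each tested gene of the 10 genes and of the other lists, 1 line per list, with called genes in red (higher) or blue (lower) and genes not called in grey. The 9 tested genes lie between -0.17 and 0.19, and *Armcx3*, *Afg3l2*, *Top1mt* and *mt-Nd3* lie farthest from 0 in their lists.

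The mRNAs that mitochondrial DNA itself encodes, which TFAM serves to transcribe, did not move as 1 group. Of 13, 8 rose and 4 fell (92.3% called, against 66.2% of all genes). Under quantile normalization 7 were called higher and 5 lower, since *mt-Co1*, named after its values were seen, changed from a log2 fold change of 0.13, called higher, to -0.49, called lower. Their summed level was 17488 to 18042 FPKM with DMSO and 17465 to 18533 FPKM with DADA (exact two-sided permutation test, p = 0.657). As a share of all FPKM of the library, they made up 3.83% to 3.98% with DMSO and 3.96% to 4.12% with DADA. These ranges overlapped only slightly (exact two-sided permutation test, p = 0.0857). *mt-Nd4* rose from 783 ± 40.0 to 1159 ± 37.0 FPKM and *mt-Nd6* from 217 ± 18.0 to 332 ± 25.4 FPKM, whereas *mt-Nd2* fell from 1081 ± 45.3 to 608 ± 40.6 FPKM and *mt-Nd3* from 215 ± 13.0 to 117 ± 7.07 FPKM (limma, Benjamini-Hochberg adjusted p = 6.05e-07, 2.10e-05, 1.74e-07 and 2.17e-07; SD, n = 4 each). All of these are subunits of complex I, and they are cut from a few long precursors. In the annotation, 9 of the 13 share at least 150 bases at 95% identity or more with 11 nuclear copies that have no value in the table, so their single values are uncertain. With the strand setting of the counting not given, reads of *mt-Nd6*, which lies on the other strand, and of transcripts opposite to it cannot be told apart, and for *mt-Nd4* DADA library 1, at 1214 FPKM, stood apart from the other 3 at 1137 to 1145 FPKM.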

How the data were processed

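The authors deposited a table of FPKM, computed from read pairs of 150 bases. The submitters' processing notes name HISAT2 2.0.5 and StringTie 1.3.3, and the mouse build GRCm39 beside a human build. The strand setting is not given in the sources used here. The methods name a stranded library kit and the labels another kit. From these deposited FPKM values, log2(FPKM + 1) was fitted with limma 3.58.1 (lmFit, eBayes with trend) in R 4.3.3 for genes with at least 1 FPKM in at least 4 of 8 libraries, with Benjamini-Hochberg adjustment over 10666 genes. All 10 genes are named, and in each other list the 2 called genes with the largest change in each direction, and any further gene was chosen after its values were seen. The 10 genes and the lists were chosen with earlier results of these data known. In a simulation of the DADA and DMSO libraries with 10666 genes, 165 of 200 changed genes (82.5%) were recovered, with 7 false calls. Recovery where as many as 7064 genes are called, as in the libraries themselves, was not tested. Recovery of log2 fold changes of 0.05 to 0.19, the sizes of the 9 tested genes, was not tested. Ratios were tested with an exact permutation test over 70 assignments in Python 3.11.15 with numpy 2.4.6. Depth was estimated from 4431 genes with a single transcript, where 38.14% to 42.44% of low values lay within 0.1 of a whole fragment (20% by chance). Near-identical genes were searched with blastn 2.17.0 in GENCODE M21, on a build other than that of the files. Alternatives were a pseudocount of 0.1, no filter, a mean of at least 5 FPKM, TPM, median-ratio and quantile scaling, no trend, a replicate block and each library left out.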

Additional observations from a re-analysis of the deposited data

Results flagged for a closer look

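1 of 70 groups of 4 libraries held a library far from the others, where chance sets apart about 1 in 20: *mt-Nd4* with DADA, in which library 1 was at 1214 FPKM and the other libraries at 1137 to 1145 FPKM, a gap of 0.889 of the range of the group.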

How the results depend on the processing

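Across the alternatives, 5 to 7 of the 10 genes were called, always with *Fis1* as the only one higher. The ratio of *Mfn2* to *Mfn1* was lower with DADA in each analysis, by a log2 difference of -0.23 to -0.18 on leaving out each library (exact permutation p = 0.0286 each time). With the replicate number as a block the difference was -0.21 with an exact sign-change p = 0.125, the smallest that 16 sign assignments allow. No pairing by number was visible, as deviations of libraries with the same number correlated at -0.12 to 0.0953 and none correlated best with its own number. Whether libraries of the same number share a mouse or a culture cannot be settled from this. The block left 5 of the 10 genes called, losing *Nrf1* (adjusted p = 0.0534, limma). *Nrf1* was also lost without the filter (0.0613) and with TPM scaling (0.0795), and *Ppargc1b* was called lower with quantile normalization (-0.38, adjusted p = 0.00481) and without DMSO library 2 (-0.22, adjusted p = 0.0356). Among the list genes named, only *Mterf4* lost its call, and none of the genes named by rule changed direction, while *mt-Co1* did so with quantile normalization (-0.49). The number of called genes of each list, both directions together, stayed within 1.5 times its count. By direction, 1 instead of 2 mitochondrial DNA genes was higher without the filter, with quantile normalization, without the trend and with the block, and 5 instead of 8 fission regulators were lower at a mean of at least 5 FPKM, where 12 of them were tested. FPKM without read counts leaves the counting error of *Ppargc1b* unknown. The alternatives for the named list genes were added after the data were seen.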
